A study of Mus musculus with 11 samples.

Results

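Sperm of males lacking Drosha in the germ line were compared with wild-type sperm by small RNA sequencing. The comparison took 5 of the 11 libraries of the series, chosen by their labels: 3 libraries of Drosha cKO sperm and 2 of wild-type (WT) sperm. All were from adult mice on a C57BL/6 background. Sperm were collected from the cauda epididymis into a medium and pelleted, and total RNA was taken from the pellet. The knockout was a conditional one, made in the germ line with Cre and loxP; the labels name no Cre line, no floxed allele and no number of males, so it is not known whether each library stands for its own animals, and the p-values measure the spread between these libraries. Messenger RNA was not measured, so neither the loss of Drosha nor sperm transcripts could be checked; of miRNAs known from germ cells, miR-34/miR-449 made up 18.2% and 16.3% of the reads listed for WT sperm. Dicer cKO sperm, with 2 libraries from the same background and collection, shared the fit and is used below as a second comparison.

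The count table lists 2304 small RNAs, 1592 of them mature microRNAs (miRNAs) and 712 endogenous small interfering RNAs (endo-siRNAs). Reads on these listed features numbered 100934, 12003 and 15921 in the Drosha cKO libraries and 73377 and 278890 in the WT libraries, so Drosha cKO replicates 2 and 3 were shallow and 3 reads stood for 249.9 and 188.4 CPM there (counts scaled to 1000000 listed reads per library). Of all features, 335 passed the expression filter and were tested, 321 miRNAs and 14 endo-siRNAs. The WT libraries differed in how much of them was listed: listed reads were 2.11% to 2.91% of the authors' library divisor in Drosha cKO sperm, against 2.16% in WT replicate 1 and 10.1% in WT replicate 2. Across the 335 tested features, which are not independent replicates, Pearson's r of log2 CPM was 0.832 to 0.881 between pairs of Drosha cKO libraries, against 0.912 between the WT libraries.

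Drosha is the nuclear enzyme that, with its partner DGCR8, cuts a miRNA hairpin out of the longer primary transcript. Dicer then cuts the exported hairpin into a duplex of a 5p and a 3p arm, of which a single arm is usually kept by an Argonaute protein, which finds targets through the seed, bases 2 to 8 of the mature miRNA. Some small RNAs pass by Drosha: mirtrons are released by splicing, a few hairpins are made directly by transcription, and endo-siRNAs are cut by Dicer from long double-stranded RNA. In the testis, the miR-34/miR-449 family and a cluster of X-linked miRNAs are known as abundant in meiotic and later germ cells. Mature sperm are largely silent in transcription, and their small RNAs are known to come from earlier germ cells and from the epididymis.

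The miRNAs on which the results turn are shown first, grouped by seed, since members of 1 seed group often moved together and the exceptions are the point of several results. Sequences are mature miRNAs from RefSeq on GRCm38.p6, written 5′ to 3′ with the seed in capitals; 1333 of the 1592 listed miRNAs matched an entry. The first set is the miR-34/miR-449 seed, in which miR-34a-5p did not fall with the others.
miR-34b-5p: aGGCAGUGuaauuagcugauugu
miR-449a-5p: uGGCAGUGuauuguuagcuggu
miR-34a-5p: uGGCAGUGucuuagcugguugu

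The second set comes from the miR-17-92 cluster and its paralogs, which carry the seeds of miR-19 and of miR-17. In it, miR-106b-5p stood apart from 3 miRNAs of its own seed.
miR-19a-3p: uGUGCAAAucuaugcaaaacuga
miR-19b-3p: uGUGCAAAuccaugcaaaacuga
miR-17-5p: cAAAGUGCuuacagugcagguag
miR-20a-5p: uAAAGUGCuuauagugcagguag
miR-93-5p: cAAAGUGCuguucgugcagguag
miR-106b-5p: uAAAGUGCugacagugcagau

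The third set is from the X-linked miRNAs near Fmr1, where related copies differ by few bases, some by a single base. Reads could thus be split between them in counting.
miR-465a-5p: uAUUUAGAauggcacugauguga
miR-465b-5p: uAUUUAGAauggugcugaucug
miR-465c-5p: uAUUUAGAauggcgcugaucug
miR-465d-5p: uAUUUAGAaugguacugauguga
miR-743a-3p: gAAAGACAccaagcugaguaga
miR-743b-3p: gAAAGACAucaugcugaauaga

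The fourth set holds broadly expressed families: miR-30, of which some members fell, and miR-200 and let-7, of which members rose.
miR-30c-5p: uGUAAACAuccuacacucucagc
miR-30e-5p: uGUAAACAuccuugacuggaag
miR-30a-5p: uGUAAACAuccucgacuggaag
miR-200b-3p: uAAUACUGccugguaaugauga
miR-200c-3p: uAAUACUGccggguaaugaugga
miR-429-3p: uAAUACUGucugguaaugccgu
let-7a-5p: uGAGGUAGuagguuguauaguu
let-7c-5p: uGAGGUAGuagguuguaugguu
let-7f-5p: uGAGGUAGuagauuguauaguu

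The fifth set shows both arms of the 2 hairpins whose arms were called in opposite directions.
miR-15b-5p: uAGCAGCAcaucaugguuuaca
miR-15b-3p: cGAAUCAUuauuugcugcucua
miR-9-5p: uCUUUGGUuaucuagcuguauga
miR-9-3p: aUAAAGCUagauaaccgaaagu

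Many miRNAs were lower in Drosha cKO than in WT sperm, and others were higher. A feature is called when its edgeR quasi-likelihood test, two-sided and with Benjamini-Hochberg adjustment over all 335 features, gave an adjusted p below 0.05. By this rule 185 features were called, 55.2% of those tested: 111 (33.1%) were lower and 74 (22.1%) were higher in Drosha cKO than in WT sperm. Reads on the 111 lower features made up 18.0%, 13.8% and 16.4% of each Drosha cKO library, against 75.6% and 81.9% of each WT library. Those on the 74 higher features made up 50.8%, 53.5% and 50.1% in Drosha cKO sperm, against 8.45% and 6.32% in WT sperm. These features were chosen by the same contrast, so their shares describe how much of each library they hold and support no direction. In CPM, every Drosha cKO library lay below both WT libraries for 30.1% of tested features and above both for 42.1%. On the authors' RPM scale, which divides by a whole-library number, these shares were 32.2% and 24.5%.

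Shares of listed reads add up to the whole library, so a fall of the most abundant features raises the share of every other one. Levels below are in CPM and carry this shift, while log2 changes use TMM factors, which assume that most features do not change. Here 55.2% of tested features were called, and how much of the shift these factors remove was not tested. The median log2 change of all tested features was 0.05 with TMM factors, −0.09 with DESeq2 size factors and 1.04 with library totals alone. TMM and DESeq2 size factors are built to place it near 0. Counts of rises varied more with the scaling than counts of falls. With library totals alone 89 features were lower and 134 higher, with the authors' divisor as library size 93 were lower and 21 higher, and with DESeq2 size factors 112 were lower and 64 higher. Without Drosha cKO replicates 2 and 3, which are shallow, 101 were lower and 31 higher, and without WT replicate 1 124 were lower and 29 higher. Without Dicer cKO replicate 1 or 2, which entered the filter, the TMM factors and the estimate of spread, the median log2 change of all tested features was −0.33 or −0.31, 129 were lower and 26 or 31 higher, and without WT replicate 2 112 were lower and 43 higher. In bulk samples, fewer cells that carry a miRNA and less of it per cell cannot be told apart.

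**Figure D1:**
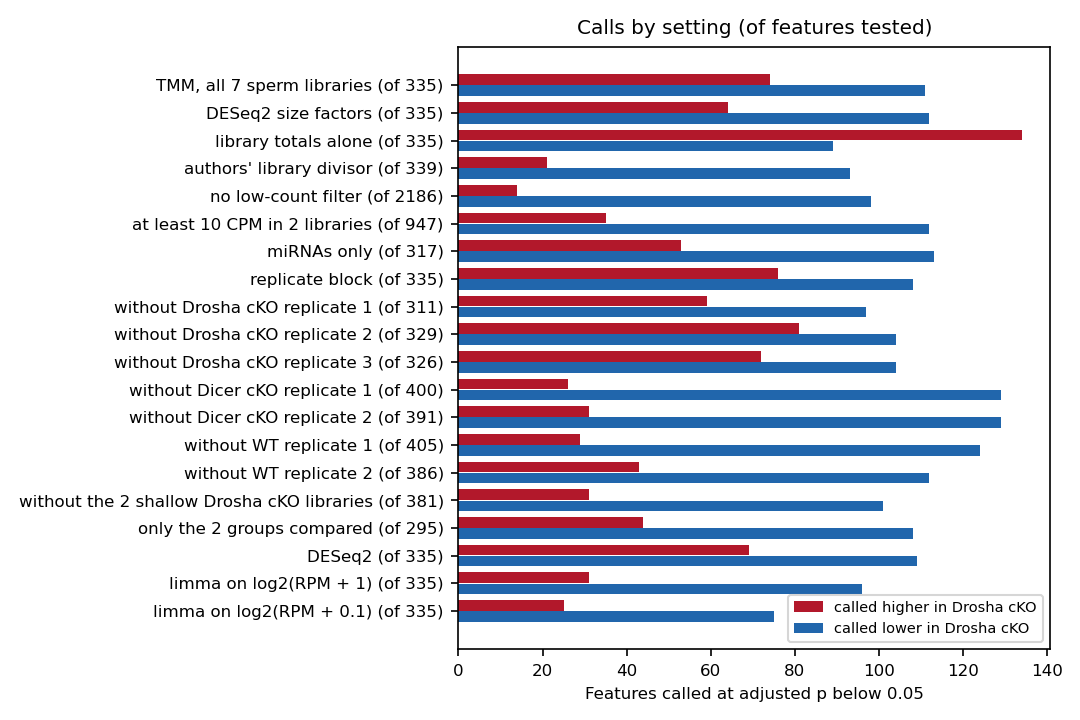
Number of features called higher (red) and lower (blue) in Drosha cKO than in WT sperm, on the horizontal axis, for each setting of the test on the vertical axis, with the number of features tested in brackets. Lower calls run from 75 to 129 over the settings and higher calls from 14 to 134.

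The miR-34/miR-449 family fell in Drosha cKO sperm, apart from miR-34a-5p. Its share of listed reads was 2.91%, 1.76% and 2.37% in Drosha cKO sperm, against 18.2% and 16.3% in WT sperm. Of 11 family members listed, 6 were tested, 5 fell and 1 was not called, with a median log2 change of −3.86 beside 0.05 for all tested features; the same 5 were called lower under each of the 19 alternatives run. miR-34b-5p, whose hairpin lies within the annotated spans of Hoatz and Btg4 (mature sequence at chr9:51103610-51103632, minus strand), stood at 9303, 6082 and 7412 CPM in Drosha cKO sperm, against 66792 and 72584 CPM in WT sperm. The groups were far apart, and its log2 change was −4.18 ± 0.43 (SE; edgeR adjusted p = 9.89e-06). miR-34c-5p, from the neighbouring hairpin, changed by −4.19 ± 0.44, and the other arms, miR-34b-3p and miR-34c-3p, by −3.65 and −3.91.

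miR-449a-5p, whose hairpin lies within Cdc20b (chr13:113037549-113037570, plus strand), fell with them, at 1546, 1583 and 1884 CPM in Drosha cKO sperm, against 10071 and 12980 CPM in WT sperm (log2 change −3.82 ± 0.50). miR-34a-5p, with the same seed and a hairpin elsewhere (chr4:150068473-150068494, plus strand), had 4280, 2833 and 3894 CPM in Drosha cKO sperm, against 845 and 864 CPM in WT sperm. Every Drosha cKO library was above both WT libraries in CPM, as for 42.1% of all tested features, but its log2 change of 1.13 ± 0.52 had an adjusted p of 0.0738 and was not called. It was called higher with library totals alone and without Drosha cKO replicate 2. miR-34a, known as a target of p53, is expressed in many tissues, while miR-34b/c and miR-449 are known from germ cells and ciliated epithelia.

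The miR-17-92 cluster and its paralogs, polycistronic miRNAs of proliferating cells, gave the most abundant WT sperm miRNA and fell as a group. Their share was 3.88%, 3.22% and 3.28% in Drosha cKO sperm, against 18.7% and 22.3% in WT sperm. Of 11 tested members 9 fell and 2 were not called (median log2 change −3.10), and 7 to 10 members were lower under the alternatives. miR-19b-3p stood at 16962, 15330 and 15702 CPM in Drosha cKO sperm, against 91364 and 101201 CPM in WT sperm (log2 change −3.59 ± 0.40, adjusted p = 1.08e-05). It remained among the abundant miRNAs of Drosha cKO sperm although it fell. miR-19a-3p, which differs from it by 1 base (U11C, miR-19a to miR-19b, counted from the 5′ end), changed by −4.17, miR-18a-5p by −4.05 and miR-20a-5p by −3.38.

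Hairpins within Mcm7 split. miR-93-5p (chr5:138165574-138165596, minus strand) had 3359, 1666 and 1570 CPM in Drosha cKO sperm, against 14323 and 12550 CPM in WT sperm, a log2 change of −3.50 ± 0.50. miR-106b-5p, 1 hairpin away (chr5:138165787-138165807, minus strand), had 2061, 2416 and 1507 CPM in Drosha cKO sperm, against 545 and 685 CPM in WT sperm, so its groups did not overlap, with Drosha cKO sperm higher, as in 42.1% of all tested features in CPM. Its log2 change of 0.66 ± 0.57 was not called (adjusted p = 0.333), and it was −0.22 without WT replicate 1. The 3p arm of the same hairpin, miR-106b-3p, fell by 2.92 on the log2 scale. miR-20a-5p and miR-106b-5p differ by U10G, U12C and G20A over the 21 bases compared.

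**Figure D2:**
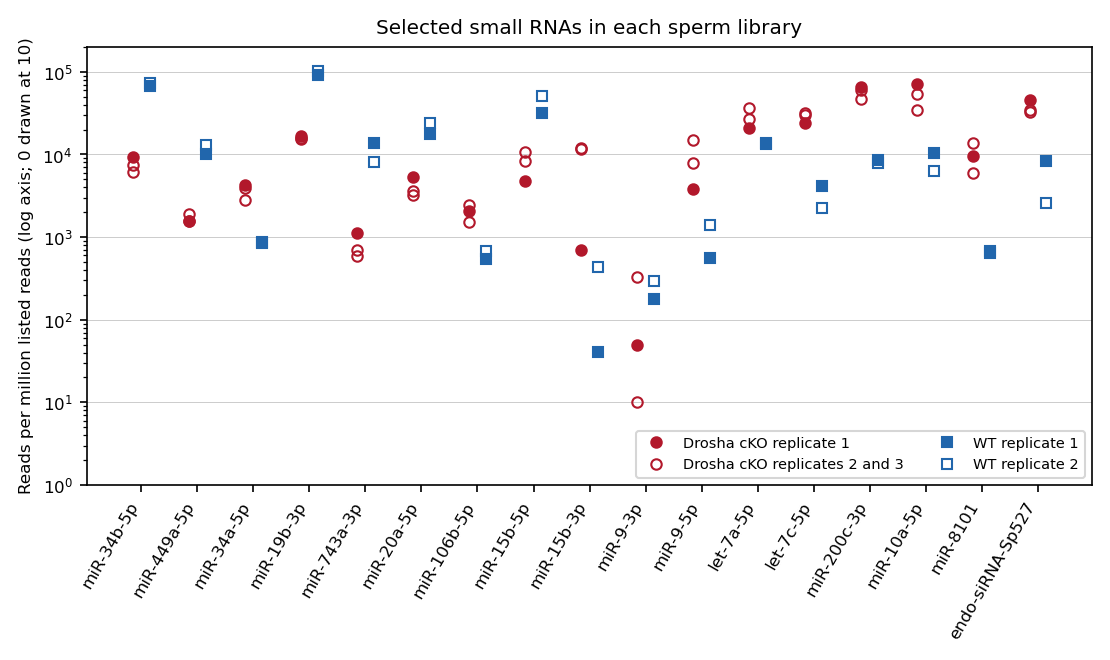
Level of 17 small RNAs in each library, in CPM of listed reads on a log axis, with Drosha cKO libraries as red circles and WT libraries as blue squares; filled symbols are replicate 1 and 0 is drawn at 10. miR-34b-5p, miR-19b-3p and miR-743a-3p are lower in every Drosha cKO library, miR-34a-5p and miR-106b-5p are higher than in WT on this scale, and the arms of miR-15b and miR-9 go opposite ways.

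All 29 tested X-linked miRNAs near Fmr1 fell, of 37 listed and 35 with a read. This rodent cluster is known for expression in the testis. Its share was 1.01%, 0.558% and 0.955% in Drosha cKO sperm, against 7.36% and 6.41% in WT sperm, the median log2 change was −3.99 and the single changes ran from −5.86 to −2.51. miR-743a-3p (chrX:66776760-66776781, minus strand) had 1129, 583 and 691 CPM in Drosha cKO sperm, against 13955 and 8061 CPM in WT sperm (log2 change −4.55 ± 0.51, adjusted p = 1.08e-05). miR-743b-3p, the next hairpin, differs from it by C9U, A12U and G18A and changed by −4.36. miR-880-3p and miR-741-3p, also abundant in WT sperm, changed by −3.49 and −3.11.

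Several of the largest falls of all were in this cluster. miR-471-5p had 5, 0 and 3 reads in Drosha cKO sperm, against 57 and 813 reads in WT sperm (log2 change −5.86). miR-465a-5p had 6, 0 and 2 reads, against 119 and 521 in WT sperm (−5.72), and miR-871-5p had 6, 2 and 3 reads, against 95 and 627 in WT sperm (−5.06). miR-743a-5p and miR-742-5p each had 1 read over the 3 Drosha cKO libraries, against 87 and 107 reads over the WT libraries; the ratios of pooled CPM were 0.0314 (95% exact interval 0.00079 to 0.180, counting error only) and 0.0255 (0.00064 to 0.145). The 4 miR-465 copies listed with the sequences above changed by −5.72 (miR-465a-5p), −4.80 (miR-465b-5p), −4.15 (miR-465c-5p) and −2.89 (miR-465d-5p). miR-465b-5p and miR-465c-5p differ only by U13C, and miR-465a-5p and miR-465d-5p differ only at that same base. The separate values within each pair are therefore uncertain.

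Other miRNAs of the X chromosome gave different counts. Of 47 tested miRNAs whose RefSeq loci are on X only, 30 were lower, 7 higher and 10 not called. Outside the Fmr1-adjacent list 1 of 18 was lower and 7 were higher, beside 33.1% lower and 22.1% higher among all tested features. The lower one was miR-362-3p (log2 change −2.28 ± 0.70), a call lost in 7 of 19 alternatives. Among those higher, miR-221-3p and miR-222-3p, neighbours in 1 X-linked cluster that is known to target the KIT receptor, changed by 1.67 and 2.44. miR-222-3p had 4270, 7665 and 4648 CPM in Drosha cKO sperm, against 259 and 635 CPM in WT sperm. Both calls were lost without WT replicate 1 and without the shallow libraries, that of miR-221-3p in 10 and that of miR-222-3p in 4 of 19 alternatives. Of 211 tested miRNAs with autosomal loci only, 46 were lower and 54 higher.

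The Sfmbt2 intron cluster, a rodent array of near-identical miR-297, miR-466, miR-467 and miR-669 hairpins, fell in 28 of 30 tested members, with 2 not called (median log2 change −3.86). Its share was 0.481%, 0.783% and 0.578% in Drosha cKO sperm, against 2.46% and 5.74% in WT sperm. miR-669a-3p stood at 1843, 2416 and 1193 CPM in Drosha cKO sperm, against 10017 and 25996 CPM in WT sperm (log2 change −4.46 ± 0.60). miR-467e-3p gave the largest fall of all called features, with 1, 0 and 0 reads in Drosha cKO sperm, against 15 and 161 reads in WT sperm; the ratio of pooled CPM was 0.0155 (95% exact interval 0.00039 to 0.0877). miR-466b-3p changed by −4.38, miR-467e-5p by −4.38 and miR-466a-3p by −4.28. WT replicate 2 held more of this cluster than WT replicate 1, and without it 19 of 30 members were lower. Of 70 members listed only 30 passed the filter, and single members share reads where their sequences are alike.

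The miR-290-295 cluster, known from embryonic stem cells and germ cells, was rare but nearly absent from Drosha cKO sperm, at 0.00198%, 0% and 0.00628% of listed reads, against 0.0572% and 0.0391% in WT sperm. miR-293-3p had 1, 0 and 0 reads in Drosha cKO sperm, against 18 and 46 in WT sperm, and miR-294-3p had 1, 0 and 0 reads, against 17 and 34 in WT sperm. The 0 reads of Drosha cKO replicate 2 allow up to 249.9 CPM at a limit of 3 reads, which is above the 165 and 245 CPM of miR-293-3p in WT sperm, so at that depth no loss could be seen there. miR-701-5p, outside the named groups, had 0, 1 and 0 reads in Drosha cKO sperm, against 22 and 38 in WT sperm.

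**Figure D3:**
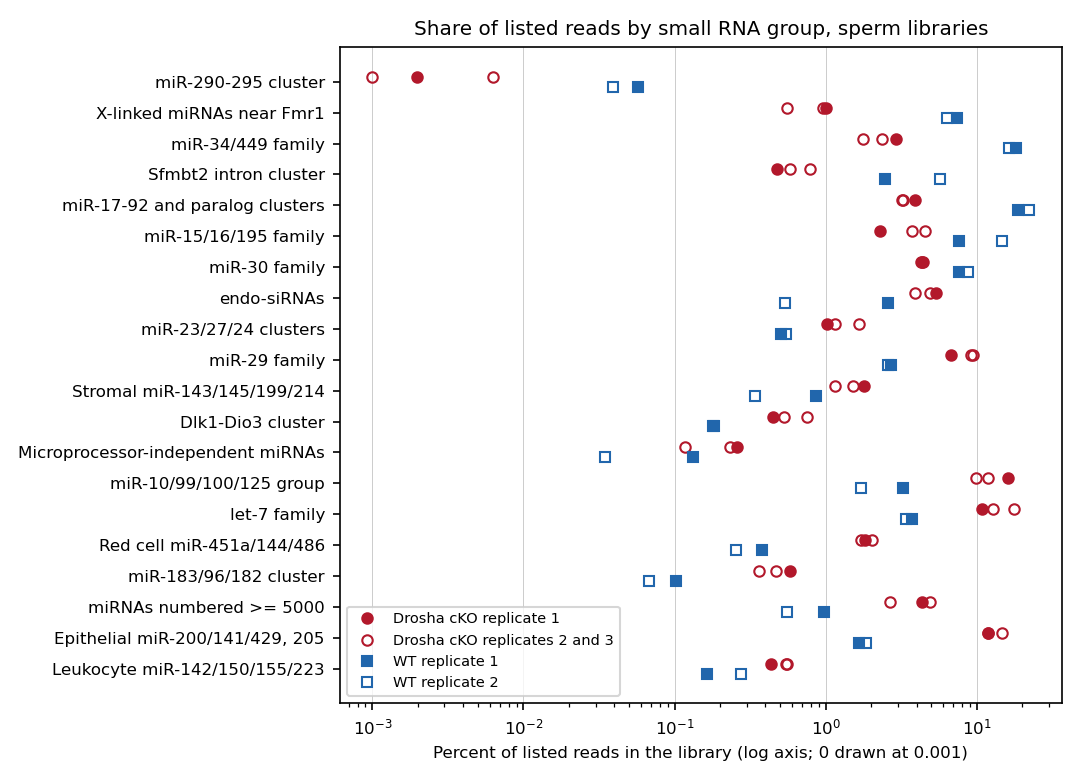
Share of listed reads (percent, log axis) held by each group of small RNAs in each library, with Drosha cKO as red circles and WT as blue squares; filled symbols are replicate 1 and 0 is drawn at 0.001. Germ cell groups such as miR-34/miR-449, at 1.76% to 2.91% in Drosha cKO and 16.3% to 18.2% in WT sperm, lie to the right in WT, and epithelial miRNAs, at 11.9% to 14.7% and 1.67% to 1.85%, lie to the right in Drosha cKO sperm.

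Falls were also seen outside these clusters. miR-191-5p, a widely expressed miRNA, had 30535, 11747 and 12876 CPM in Drosha cKO sperm, against 71289 and 39625 CPM in WT sperm (log2 change −2.41 ± 0.47, adjusted p = 0.000608). miR-425-5p, from the same primary transcript, changed by −3.37 ± 0.56. miR-16-5p, of the cell cycle-linked miR-15/16 family, had 12325, 9081 and 13755 CPM in Drosha cKO sperm, against 29628 and 64854 CPM in WT sperm (log2 change −3.13 ± 0.52). In that family 5 of 7 tested members fell, 1 rose and 1 was not called, and the fall of miR-195a-5p (−1.73) rested on groups that overlapped in CPM. miR-184-3p and miR-296-5p, chosen after their values were seen, changed by −4.66 and −4.19.

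The miR-30 family, broadly expressed miRNAs, split within 1 seed. Of 7 tested arms, 5 fell and 2, both of miR-30a, were not called (median log2 change −2.17). miR-30b-5p had 8461, 15413 and 14007 CPM in Drosha cKO sperm, against 27338 and 46864 CPM in WT sperm (log2 change −2.66 ± 0.47), and miR-30c-5p changed by −2.59. miR-30e-5p (chr4:120772660-120772681, minus strand, within Nfyc) changed by −2.17 ± 0.54, while miR-30a-5p (chr1:23272274-23272295, plus strand), which differs from it by C13U alone, changed by −0.40 ± 0.41 (adjusted p = 0.417). miR-30a-5p stood at 13504, 11081 and 9484 CPM in Drosha cKO sperm, against 9335 and 6766 CPM in WT sperm, and its log2 change was 0.50 with library totals alone. The miR-30d-5p groups overlapped in CPM, and its fall of 1.42 on the log2 scale was not called with library totals alone or with the authors' divisor.

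Both arms of a hairpin mostly moved together. Among 55 hairpin names with both arms tested, 24 had both arms lower, 5 both higher and 12 neither called; in 6 only 1 arm was called higher, in 6 only 1 was called lower, and in 2 the arms were called in opposite directions. The log2 changes of the arms had the same sign in 47 of 55. Among all tested features 33.1% were lower and 22.1% higher. Many of the pairs with both arms lower belong to the X-linked and Sfmbt2 groups, in which 29 of 29 and 28 of 30 tested members fell. miR-15b-5p had 4795, 8331 and 10740 CPM in Drosha cKO sperm, against 32040 and 51182 CPM in WT sperm, a log2 change of −3.48 ± 0.49. Its partner miR-15b-3p, from the same hairpin within Smc4 (chr3:69009813-69009834, plus strand), had 694, 11914 and 11808 CPM in Drosha cKO sperm, against 41 and 430 CPM in WT sperm, a log2 change of 3.71 ± 1.10 (adjusted p = 0.00983). The rise rested on the shallow Drosha cKO replicates 2 and 3, and without them it was not called.

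For miR-9, made from 3 loci with the same mature sequences, miR-9-5p had 3775, 7998 and 14823 CPM in Drosha cKO sperm, against 559 and 1391 CPM in WT sperm (log2 change 1.99 ± 0.69, adjusted p = 0.0226). miR-9-3p had 5, 4 and 0 reads in Drosha cKO sperm, against 13 and 82 reads in WT sperm (log2 change −2.45 ± 0.95, adjusted p = 0.0381). The CPM of its groups overlapped, and the calls of both arms were lost under several alternatives, among them the authors' divisor and leaving out Drosha cKO replicate 3. By seed, 31 seeds were shared by at least 2 tested miRNAs with a RefSeq sequence. In none of them was 1 member lower and another higher, 7 had all members lower and 5 had all members higher. The 2 miR-19 and the 4 miR-465 sequences above were among those all lower, and the seed of miR-200b, miR-200c and miR-429 was all higher.

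**Figure D4:**
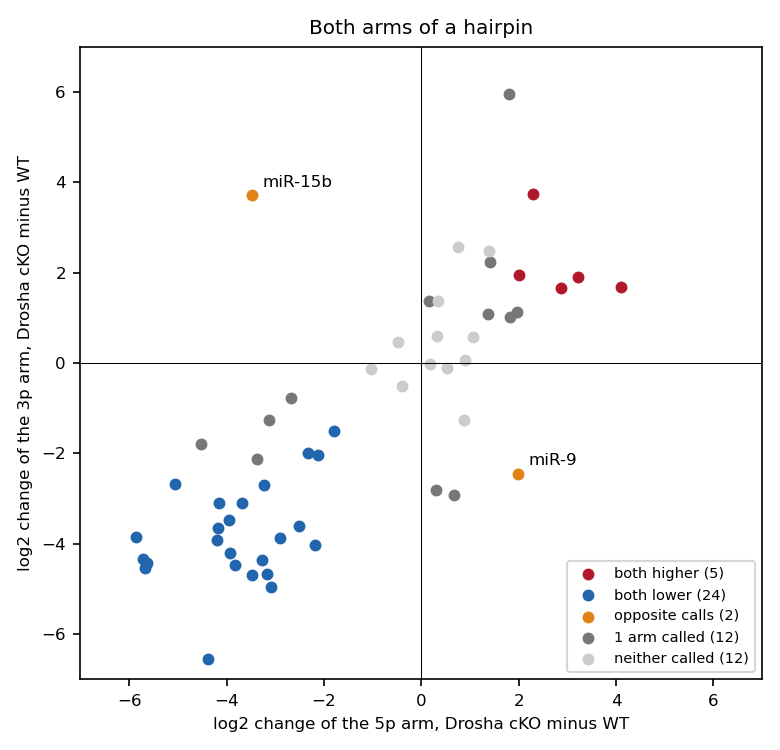
log2 change (Drosha cKO minus WT sperm) of the 3p arm against that of the 5p arm for 55 hairpin names with both arms tested, coloured by call. Both arms were lower in 24 hairpins and higher in 5, and miR-15b and miR-9 lie in the quadrants where the arms were called in opposite directions.

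By abundance in Drosha cKO sperm, miRNAs of epithelia and of broadly expressed families came first among the features that rose. The miR-200 family with miR-141, miR-429 and miR-205, known as markers of epithelial cells, held 11.9%, 14.7% and 12.0% of listed reads in Drosha cKO sperm, against 1.67% and 1.85% in WT sperm. All 9 tested arms of these miRNAs were called higher (median log2 change 1.94), beside 22.1% of all tested features. In Dicer cKO sperm 8 of the 9 were called higher against the same WT libraries (median 2.50). miR-200c-3p was the most or second most abundant miRNA of Drosha cKO sperm in every library, at 66291, 59735 and 47045 CPM, against 8504 and 8000 CPM in WT sperm. Its log2 change was 1.84 ± 0.42 (adjusted p = 0.00181). miR-200b-3p changed by 1.94, miR-200a-3p by 1.90, miR-429-3p by 1.68, miR-141-3p by 1.47 and miR-205-5p by 2.14, and miR-429-5p, a rarer arm, by 4.10 ± 1.13. The miR-429-5p rise came from the shallow libraries, with 139, 2416 and 4522 CPM in Drosha cKO sperm, against 27 and 79 CPM in WT sperm, and without them its log2 change was 0.020.

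Their calls depended on single libraries. Without WT replicate 1, 2 of the 9 were called, with Dicer cKO replicate 1 left out, 3, and with replicate 2 of that group left out, 4. A single arm was called without the shallow Drosha cKO replicates 2 and 3, and likewise with the authors' divisor. The list's median log2 change lay between 1.09 and 2.91 over the 19 alternatives. On the authors' RPM scale the group summed to 3208, 4264 and 2523 RPM in Drosha cKO sperm, against 360 and 1858 RPM in WT sperm. The groups did not overlap on this scale, as for 24.5% of tested features, and WT replicate 2 was the nearer to Drosha cKO sperm.

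Markers of other cells that an epididymal pellet could hold were read beside these. Red cell miRNAs (miR-451a and miR-144, while miR-486 was not tested) held 1.83%, 1.72% and 2.02% in Drosha cKO sperm, against 0.379% and 0.256% in WT sperm. Of 3 tested members 2 were higher, beside 22.1% of all tested features. miR-451a, a red cell miRNA that needs Drosha but is cut by Argonaute 2 in place of Dicer, had 14485, 8581 and 10803 CPM in Drosha cKO sperm, against 3244 and 1585 CPM in WT sperm (log2 change 1.41 ± 0.44, adjusted p = 0.013), a call lost in 10 of 19 alternatives. Of the leukocyte miRNAs, miR-150-5p and miR-223-3p rose by 2.69 and 2.01 (calls lost in 2 and 11 of 19 alternatives). miR-142-5p fell by 2.68, a call lost in 7 of 19 alternatives. It had 2.67, 2.42 and 6.63 RPM in Drosha cKO sperm, against 2.64 and 69.6 RPM in WT sperm. On that scale WT replicate 1 thus lay within the Drosha cKO range. miR-142-3p (−0.79) and miR-155-5p (2.03) were not called. Together the leukocyte miRNAs held 0.434%, 0.558% and 0.546% in Drosha cKO sperm, against 0.165% and 0.274% in WT sperm. Without WT replicate 1 no red cell miRNA was called, and 2 leukocyte miRNAs were called lower and none higher. The stromal and smooth muscle miRNAs held 1.79%, 1.15% and 1.51% in Drosha cKO sperm, against 0.861% and 0.343% in WT sperm, and none of 7 tested was called (median 0.65). Tested markers had to pass the expression filter, so absent ones could not be among them. Of 5 red cell miRNAs listed, 3 had a read in the Drosha cKO or WT libraries. The part that other cells had in the rises was not tested.

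Members of let-7, a family abundant in differentiated cells, differed among themselves. The family's share was 10.8%, 17.6% and 12.8% in Drosha cKO sperm, against 3.75% and 3.40% in WT sperm, and 5 of 14 tested members were higher, beside 22.1% of all tested features, 9 not called and none lower (median log2 change 1.14). On the authors' RPM scale the groups overlapped, at 2921, 5122 and 2700 RPM in Drosha cKO sperm, against 808 and 3420 RPM in WT sperm. let-7c-5p had 23818, 32075 and 29646 CPM in Drosha cKO sperm, against 4102 and 2273 CPM in WT sperm (log2 change 2.30 ± 0.42, adjusted p = 0.00045). let-7f-5p rose by 1.90 and let-7b-5p by 2.30. let-7a-5p, which differs from let-7f-5p by G12A and from let-7c-5p by A19G, had 21123, 36991 and 26883 CPM in Drosha cKO sperm, against 13369 and 13912 CPM in WT sperm, and its log2 change of 0.05 ± 0.42 was not called and turned negative with DESeq2 size factors. let-7g-5p changed by 0.35 and was not called. let-7b-3p, the minor arm, had 18, 19 and 16 reads in Drosha cKO sperm, against 1 and 10 reads in WT sperm (3.74 ± 0.97), a call lost without the shallow libraries. With the authors' divisor 1 let-7 member was called higher, and with library totals alone 11 were. Without WT replicate 1, 3 members were higher and 2 lower, and without Dicer cKO replicate 1, 3 were higher and 1 lower.

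The miR-10/miR-99/miR-100/miR-125 group, in which miR-10a and miR-10b lie in Hox clusters and are high in epithelia, held 16.2%, 11.9% and 9.85% in Drosha cKO sperm, against 3.27% and 1.71% in WT sperm. Of its 8 tested members 3 were higher, beside 22.1% of all tested features. miR-10a-5p (chr11:96317186-96317208, plus strand, within Hoxb3) had 71027, 54320 and 34420 CPM in Drosha cKO sperm, against 10344 and 6239 CPM in WT sperm (log2 change 1.83 ± 0.43, adjusted p = 0.00267). miR-10b-5p, 1 base different from it (U12A), rose by 1.77, and miR-125b-5p rose by 1.05 ± 0.41 (adjusted p = 0.0371), a call lost in 16 of 19 alternatives; miR-99a-5p (1.13) and 4 more of the 8 tested were not called. With the authors' divisor none of the group was called, nor was any when Dicer cKO replicate 1 was left out, and 1 was when replicate 2 of that group was left out. The miR-183/miR-96/miR-182 cluster, known from sensory cells, had 3 of 3 tested members higher, with miR-183-5p at 1.66, miR-182-5p at 1.45 and miR-96-5p at 1.72. Adjusted p-values were between 0.031 and 0.0486, and without WT replicate 1 or without WT replicate 2 none was called.

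miRNAs numbered 5000 and above, late additions to the miRNA register that are mostly of unknown function, made up many of the largest rises. Of 619 listed, 34 were tested, 14 rose, none fell and 20 were not called (median log2 change 1.90), beside 22.1% higher among all tested features. Members could pass the filter through Drosha cKO reads alone. Without a filter the median was 0.46 over 571 members, beside −0.84 for all features, with 8 higher and 1 lower. At 10 CPM in 2 libraries it was 1.36 over 209 members, beside 0.21 for all features, with 9 higher and 1 lower. Their share was 4.35%, 2.68% and 4.92% in Drosha cKO sperm, against 0.970% and 0.555% in WT sperm. miR-8101 (chr11:102230103-102230124, minus strand, within Hdac5) had 9719, 5998 and 13755 CPM in Drosha cKO sperm, against 641 and 688 CPM in WT sperm, a log2 change of 2.88 ± 0.58 (adjusted p = 0.000794). miR-6240 (chr5:114851973-114851998, plus strand) had 7173, 3749 and 5213 CPM in Drosha cKO sperm, against 681 and 212 CPM in WT sperm, and miR-5130 (within Kctd12) changed by 3.93 ± 0.81. These 3 are shown for their base composition, which is rich in G and C.
miR-8101: gGCGAGCGgagccggaggagcc
miR-6240: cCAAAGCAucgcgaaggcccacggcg
miR-5130: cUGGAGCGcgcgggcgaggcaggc

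The median GC content was 69.2% for the 13 higher miRNAs of this kind with a RefSeq sequence, 43.5% for the 49 other higher miRNAs, 40.9% for the 77 lower ones and 45.5% for the 121 not called. The 18 late-numbered miRNAs that were not called had a median of 61.9%. miR-7115-5p had 13, 2 and 2 reads in Drosha cKO sperm and none in either WT library, at least 15.5-fold higher when WT is set at 3 reads over the group. With 2 and 0 reads in Dicer cKO sperm, it passed the filter through Drosha cKO reads alone. Its direction was thus set by the filter and gives no support for a rise, and its call was lost in 2 of 16 alternatives. miR-1950 (13, 3 and 5 reads, against 0 and 1 in WT sperm), miR-7036-5p (36, 2 and 4, against 0 and 2) and miR-5621-5p (53, 2 and 12, against 2 and 2) rose on few WT reads. For miR-1950 the ratio of pooled CPM was 57.4 (95% exact interval 9.23 to 2374), and for miR-7036-5p it was 57.4 (14.9 to 489.6). miR-8112 rose by 1.75, a call lost in 11 of 19 alternatives, and that of miR-1950 was lost in 5 of 18. Those of miR-8101, miR-6240, miR-5130, miR-5621-5p and miR-7036-5p were kept in all 19. miR-6412 was not called (−0.32). Leaving out WT replicate 2, or Drosha cKO replicates 2 and 3, lowered the count of higher calls in the list to 7.

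miRNAs reported to be made without Drosha were few and thinly sequenced, and none changed by the test. Of 34 listed, 6 were tested and none was called (median log2 change 0.81, beside 0.05 for all features). miR-484, made directly by transcription, had 119, 8 and 18 reads in Drosha cKO sperm, against 60 and 14 in WT sperm (log2 change 0.71 ± 0.81), and miR-320-3p, of the same kind, had 27, 0 and 3 reads, against 10 and 11 in WT sperm (0.43 ± 0.83). miR-1981-5p (1.20), miR-1839-5p (0.91) and miR-664-3p (2.03) were not called either. For miR-484 and miR-320-3p the SE was larger than the log2 change, and changes of that size could not be told from none at this depth.

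Several families of widely expressed miRNAs were mostly or wholly not called. In the miR-29 family, which targets collagen and DNA methyltransferase transcripts, 1 of 5 tested members rose, beside 22.1% of all tested features. It was miR-29c-3p (1.38 ± 0.47, adjusted p = 0.022), whose call was lost in 11 of 19 alternatives, among them leaving out either WT library or either Dicer cKO library. miR-29b-3p, among the most abundant miRNAs of Drosha cKO sperm, had 39214, 48488 and 45663 CPM there, against 13451 and 12804 CPM in WT sperm; its log2 change of 0.78 was not called and miR-29a-3p (0.46) was not either. None of 6 tested members of the miR-23/27/24 clusters was called, with miR-27b-3p at 0.54, miR-23a-3p at 0.46, miR-27a-3p at 0.31 and miR-23b-3p at −0.57. In the imprinted Dlk1-Dio3 cluster 4 of 72 listed members were tested and none was called, with miR-369-3p at 1.26 and miR-380-3p at 2.14, and miR-434-3p at −1.35. Medians of the miR-23/27/24, miR-29 and Dlk1-Dio3 groups turned negative when Drosha cKO replicates 2 and 3 were left out. In that setting the median of all tested features was itself −0.39, below those of these groups.

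**Figure D5:**
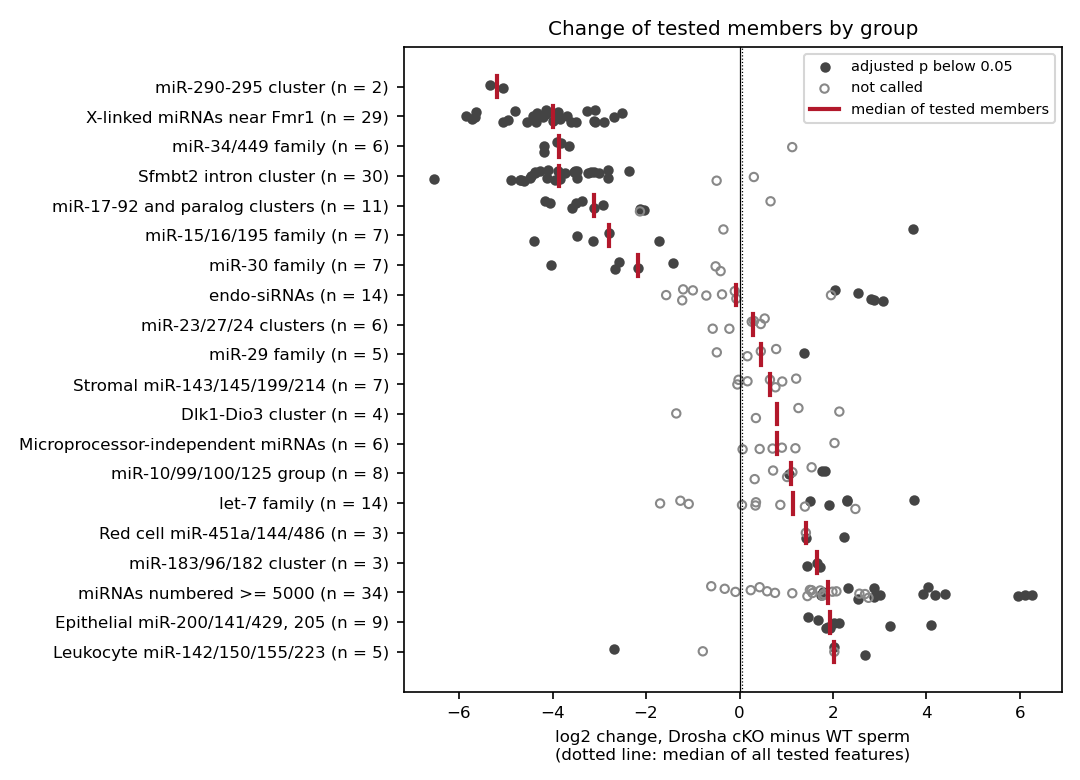
log2 change (Drosha cKO minus WT sperm) of every tested member of each group, with filled points for features called at an adjusted p below 0.05, open points for those not called and a red bar at the group's median. Medians run from −5.20 for the miR-290-295 cluster to 2.01 for the leukocyte miRNAs, and the dotted line at 0.05 is the median of all tested features.

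Among endo-siRNAs, 1 took most of the reads in Drosha cKO sperm. Of 712 listed, 14 were tested, 5 were higher, 9 not called and none lower (median log2 change −0.08), beside 22.1% higher among all tested features. Without the filter the median was −2.17 over 711 endo-siRNAs, beside −0.84 for all features, and none was called, so no direction is given for the class. endo-siRNA-Sp527 had 45792, 32242 and 34169 CPM in Drosha cKO sperm, against 8313 and 2564 CPM in WT sperm (log2 change 2.05 ± 0.46, adjusted p = 0.00181). It made up 84.9%, 83.0% and 69.6% of endo-siRNA reads in Drosha cKO sperm, against 32.0% and 47.3% in WT sperm. In Dicer cKO sperm this part was also large, at 73.9% and 69.7%. All other endo-siRNAs together held 0.814%, 0.658% and 1.49% of listed reads in Drosha cKO sperm, against 1.77% and 0.286% in WT sperm, so the WT libraries lay on both sides of Drosha cKO sperm. endo-siRNA-Sp521, endo-siRNA-Sp520, endo-siRNA-Sp532 and endo-siRNA-Sp556 were the other 4 called higher, at 3.07, 2.81, 2.52 and 2.87. Of 18 alternatives, the call was lost in 3 for endo-siRNA-Sp521, 11 for endo-siRNA-Sp520, 10 for endo-siRNA-Sp532 and 6 for endo-siRNA-Sp556. endo-siRNA-Sp392 (−0.10) and endo-siRNA-Sp459 (−0.07) were not called. Drosha cKO libraries had a read on 24 to 139 of the 712, against 711 in WT replicate 1, 511 of them with exactly 1 read, and 160 in WT replicate 2. Without WT replicate 1 the tests gave 2 endo-siRNAs higher and 1 lower, and without WT replicate 2 they gave 3 higher and 3 lower. With Dicer cKO replicate 1 left out 2 were higher and 3 lower, and with replicate 2 of that group left out 3 were higher and 3 lower. Without the shallow Drosha cKO libraries 1 was higher, and with the authors' divisor the call of endo-siRNA-Sp527 was lost.

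Counts of detected features depend on depth, which was lower in Drosha cKO sperm, and on the number of libraries, and no direction is read from them. Of 717 features with a read in both WT libraries, 127 had none in any Drosha cKO library. Of 289 with a read in all 3 Drosha cKO libraries, 4 had none in either WT library: miR-1967, miR-6416-5p, miR-6968-3p and miR-7115-5p.

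Dicer cKO sperm was the other knockout sperm of the series, and Drosha cKO sperm was tested against it directly in the same fit, because both knockouts share their WT libraries. No feature was called between Drosha cKO and Dicer cKO sperm by edgeR (0% of 335), 65 had an unadjusted p below 0.05, and DESeq2 called 18, 4 lower and 14 higher, with 46 adjusted p-values not given. The count was 36 without WT replicate 1, 39 without WT replicate 2 and 31 when only these 2 groups were fitted, so a count of 0 does not show that the knockouts are alike. Among the lists, endo-siRNAs held 5.39%, 3.88% and 4.91% in Drosha cKO sperm and 1.60% and 1.16% in Dicer cKO sperm, and late-numbered miRNAs 4.35%, 2.68% and 4.92% in Drosha cKO and 1.23% and 1.40% in Dicer cKO sperm.

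Features nearest to a call between the knockouts had an adjusted p of 0.0694 or 0.082. miR-34b-3p had 4458, 2666 and 4145 CPM in Drosha cKO sperm, against 1041 and 583 CPM in Dicer cKO sperm (log2 difference, Drosha cKO minus Dicer cKO, 1.97 ± 0.48, adjusted p = 0.0694). miR-451a had 14485, 8581 and 10803 CPM in Drosha cKO sperm, against 33556 and 26632 CPM in Dicer cKO sperm (−1.66 ± 0.42, adjusted p = 0.0694). Shares of the blood cell lists are given beside it. The red cell list includes miR-451a itself, which held a large part of its reads. Red cell miRNAs held 1.83%, 1.72% and 2.02% in Drosha cKO sperm, against 4.04% and 3.84% in Dicer cKO sperm, and leukocyte miRNAs 0.434%, 0.558% and 0.546% in Drosha cKO sperm, against 1.12% and 1.33% in Dicer cKO sperm. The leukocyte arms miR-142-3p (−1.91) and miR-142-5p (−3.27) had an adjusted p of 0.082, while miR-144-3p differed by −0.62. The part of blood cells in the miR-451a difference was not tested. miR-8101 had 9719, 5998 and 13755 CPM in Drosha cKO sperm, against 1187 and 1387 CPM in Dicer cKO sperm (2.67 ± 0.57, adjusted p = 0.0694), and endo-siRNA-Sp527 had 45792, 32242 and 34169 CPM, against 11790 and 8110 CPM in Dicer cKO sperm (1.66 ± 0.45, adjusted p = 0.082). endo-siRNA-Sp453 went the other way, with 1, 0 and 0 reads in Drosha cKO sperm, against 26 and 18 reads in Dicer cKO sperm (−4.58 ± 1.28, adjusted p = 0.082). Against the shared WT libraries, where 47.2% of features were called in Dicer cKO sperm (31% lower and 16.1% higher), the miR-34/miR-449 family had 5 of 6 members lower in both knockouts and miR-34a-5p changed by 1.13 in Drosha cKO (not called) and 2.04 in Dicer cKO sperm (called higher). The X-linked cluster had 29 of 29 lower in both, and the miR-30 family 5 of 7 lower in Drosha cKO and 3 of 7 lower in Dicer cKO sperm, with miR-30b-5p at −2.66 in Drosha cKO and −1.60 in Dicer cKO sperm. Of the epithelial arms 9 of 9 were higher in Drosha cKO and 8 of 9 in Dicer cKO sperm, where they held 13.7% and 16.4% of listed reads. The miR-10/miR-99/miR-100/miR-125 group had 3 of 8 higher in Drosha cKO and 6 of 8 in Dicer cKO sperm. These rises were thus not particular to Drosha cKO sperm.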

How the data were processed

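Small RNA libraries of cauda epididymal sperm were compared: 3 Drosha cKO, 2 Dicer cKO and 2 WT, grouped by the genotype in the labels. The authors deposited a table of raw read counts per listed miRNA and endo-siRNA, and a table of RPM, in which each count is divided by a whole number per library; the divisors recovered from the deposited tables are 3743577, 412523 and 754148 for Drosha cKO and 3403851 and 2773898 for WT sperm. Bowtie and the mm10 build are named in the submitters' processing notes; not given in the sources used here are the Bowtie version, how reads were counted, which miRNA release was used and where the listed endo-siRNAs come from. The labels name Illumina protocols and the series design an Ion Torrent Proton.

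Counts were tested with edgeR 4.0.16 (R 4.3.3): filterByExpr, TMM factors, and a quasi-likelihood fit over the 7 sperm libraries without covariates, with Benjamini-Hochberg adjustment over 335 features. SEs are the log2 change divided by the square root of the F statistic. The biological coefficient of variation was 0.459. CPM are counts scaled to 1000000 listed reads. Pooled ratios and floors (3 reads) cover counting error only, since the reads carry no molecular identifiers known from the labels. The scripts were tested on simulated data. Mature sequences, loci and overlapping genes came from RefSeq tables on GRCm38.p6, matched by name.

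The miRNA groups and tests were chosen with earlier results of these data known. Named features were, among called ones averaging 10 CPM or more and separated between the groups, the 8 that fell most and the 8 that rose most, the 6 most abundant in each group and up to 4 members of each list; miR-34a-5p, miR-34c-3p, miR-17-5p, miR-93-5p, miR-106b-5p and its other arm, both arms of miR-9, miR-205-5p, miR-141-3p, miR-184-3p, miR-296-5p, miR-425-5p, the miR-465 copies other than miR-465a-5p, let-7b-5p, miR-221-3p, miR-222-3p, miR-362-3p, miR-30e-5p, miR-155-5p, miR-195a-5p, miR-664-3p and 3 endo-siRNAs (Sp520, Sp532 and Sp556) were added after their values were seen. Alternatives were DESeq2 size factors, library totals alone or the authors' divisor as library size, no filter, at least 10 CPM in 2 libraries, miRNAs only, the replicate number as a block, each library left out, both shallow libraries left out, only the groups compared, DESeq2 1.42.0, and limma 3.58.1 on log2(RPM + 1) and log2(RPM + 0.1). Oocyte and zygote libraries of the series were not used.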

Additional observations from a re-analysis of the deposited data

How the results depend on the processing

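The number of features called in Drosha cKO against WT sperm was 114 with the authors' divisor as library size, 112 without a filter and 100 with limma on log2(RPM + 0.1), and 153 to 185 when a library was left out, beside 185. Higher calls, 74 in the report, numbered 134 with library totals alone, 21 with the divisor, 14 without a filter, 35 at 10 CPM in 2 libraries, 31 without the shallow libraries, 44 with only the groups compared, and 31 and 25 with limma (+ 1 and + 0.1). They ran from 26 to 81 over single left-out libraries, and lower calls from 97 to 129. Lower calls made up 60% of calls, 39.9% with library totals alone, 81.6% with the divisor and 87.5% without a filter. Of 46 named features called lower, 37 stayed so under every alternative, and of 42 called higher, 7 did. Calls between Drosha cKO and Dicer cKO sperm numbered 13 with totals, 1 with the divisor, 1 without a filter, 4 at 10 CPM, 31 with only 2 groups, 18 with DESeq2, 2 with limma (+ 1), and 0 to 39 over left-out libraries. The cause of these changes was not tested.

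Replicate numbers appear in both groups, but the labels do not say that a number marks a shared animal or day. Same-numbered Drosha cKO and WT libraries deviated from their group means with correlations of 0.216 and 0.161, with only 2 pairs. With the replicate number as a block 184 features were called, 108 lower and 76 higher, and 8 between Drosha cKO and Dicer cKO sperm.

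Values not called or near 0 changed sign. Without the shallow libraries, median log2 changes were −0.26 for miR-29, −0.24 for miR-23/27/24 and −0.037 for Dlk1-Dio3 (beside −0.39 for all tested features), and single changes −0.53 for let-7a-5p, −0.057 for let-7g-5p, −0.26 for miR-29a-3p, −0.998 for miR-29c-5p, −0.48 for miR-27b-3p, −0.23 for miR-27a-3p and −0.037 for miR-136-5p. With totals alone they were 0.75 for endo-siRNAs, 0.50 for miR-30a-5p, 0.42 for miR-23b-3p, 0.88 for miR-199a-3p, 0.29 for miR-142-3p, 0.64 for miR-6412, 0.79 for endo-siRNA-Sp392 and 0.70 for endo-siRNA-Sp459. With the divisor they were −0.69 for Dlk1-Dio3, 0.94 for endo-siRNAs and −0.19 for let-7a-5p. Without a filter they were −0.14 for Dlk1-Dio3, −1.23 for leukocyte miRNAs, −0.28 for let-7a-5p and −0.053 for miR-29c-5p, and at 10 CPM −0.63 for Dlk1-Dio3, −0.95 for leukocyte miRNAs and −0.14 for let-7a-5p. let-7a-5p was −0.066 with DESeq2 and with its size factors, −0.19 with miRNAs only and −0.20 with only 2 groups, which gave 1.70 for endo-siRNAs. miR-29c-5p was −0.13 with miRNAs only and −0.42 with the block, which gave −0.059 for miR-136-5p and 0.10 for endo-siRNA-Sp392. With limma, + 1 and + 0.1, miR-136-5p was −0.20 and −0.92 and miR-320-3p −0.36 and −1.29.

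Over single left-out libraries the ranges were −0.20 to 1.01 for miR-29, −0.62 to 0.63 for miR-23/27/24, −0.18 to 2.17 for Dlk1-Dio3, −0.13 to 1.06 for Drosha-independent, −0.38 to 0.85 for stromal miRNAs and −0.69 to 1.57 for endo-siRNAs. For single features they were −0.018 to 1.01 (miR-29b-3p), −0.80 to 0.38 (let-7a-5p), −0.51 to 0.61 (let-7g-5p), −0.39 to 0.82 (miR-29a-3p), −0.49 to 1.09 (miR-29c-5p), −0.63 to 1.17 (miR-27b-3p), −0.30 to 0.81 (miR-23a-3p), −0.61 to 0.66 (miR-27a-3p), −0.42 to 0.81 (miR-136-5p), −0.69 to 2.56 (miR-484), −0.45 to 0.88 (miR-320-3p), −0.15 to 1.12 (miR-145a-5p), −0.73 to 0.41 (miR-199a-3p), −0.42 to 1.03 (miR-214-3p), −1.08 to 0.078 (miR-6412), −0.69 to 0.28 (endo-siRNA-Sp392), −0.90 to 0.24 (endo-siRNA-Sp459) and −0.22 to 1.04 (miR-106b-5p). Depth limits Drosha cKO replicates 2 and 3 most, where 3 reads are 249.9 and 188.4 CPM.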
